A study of Mus musculus with 18 samples.

Results

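T cells from tumors of mice that lacked Nr2f6 and received the anti-PD-L1 antibody were compared with T cells from tumors of wild-type mice that received the control antibody. The comparison took all 6 Nr2f6-/- aPDL1 samples and all 3 wild-type IgG2b samples, 9 of the 18 samples, as the labels group them. The other 9 samples, 3 Nr2f6-/- IgG2b and 6 wild-type aPDL1, gave the effect of each change alone, so that the combined difference could be set beside the sum of both. All mice were of the C57BL/6 background and carried B16-OVA tumors, a melanoma line that expresses ovalbumin as a model antigen, from 500000 cells injected under the skin. They received 0.5 mg of antibody i.p. repeatedly from day 3 on, and tumors were harvested on day 14. Beads first enriched CD4+ and CD8+ cells from the tumors, the fractions were joined, and a CD3 sort followed, so a value averages over both kinds of T cell. The knockout was in the whole body and not in T cells alone. The labels do not say that replicates were separate mice, and p-values measure only the spread between these samples.

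PD-1 is an inhibitory receptor that T cells raise after stimulation, and its ligand PD-L1 on tumor and myeloid cells engages it and lowers T cell function. NR2F6 is an orphan nuclear receptor that binds DNA and acts in T cells as a repressor of cytokine genes. The question of the comparison was what T cells carry when both brakes are taken away at the same time, and whether this equals what the removal of each brake adds.

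Libraries read the 3′ ends of transcripts, and the 9 samples held between 12473391 and 18362990 reads on genes. Values are normalized counts, the read count of a gene divided by 1 size factor per sample. A level of 3 reads, the limit that a count of 0 allows, was between 2.46 and 3.64 normalized counts. Replicates 1 to 3 of all groups belong to the first set of library numbers, and replicates 4 to 6 of both aPDL1 groups to the second set, so no IgG2b sample is in the second set. Wild-type IgG2b samples had reads on 13019 to 13655 genes and combination samples on 11626 to 12706.

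Nr2f6 (chr8:71374118-71381967) checked the labels. Its normalized counts were 20.2, 101 and 35.7 in the wild-type IgG2b samples and 0 reads were counted in all 6 combination samples. The wild-type mean of 52.3 ± 42.9 (SD, n = 3) was at least 14.4-fold higher than the floor of 3 reads per library (at least 7.66-fold without replicate 2), and the groups did not overlap (exact permutation test of the means, two-sided, p = 0.0119, the smallest that the 84 assignments can give).

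Of 11992 genes tested, 74 (0.617%) passed an adjusted p of 0.05 in limma, 19 higher (0.158%) and 55 lower (0.459%) in the combination samples. The genes that rose with the smallest p were Ccl5, Entpd1, Tox, Tox2, Ly6a and Nkg7. Those that fell with the smallest p were the macrophage genes Lyz2 and Ccl6, and 18 of the 55 were in the fixed lists of myeloid, MHC class II or platelet genes. The samples of both groups did not overlap for 17 of the 19 genes that rose and for all 55 that fell, and over all genes tested this was so for 260 higher (2.17%) and 480 lower (4.0%). Over all genes the fitted difference was below 0 in 6930 (57.8%), with a median of -0.12 on the log2 scale. The count of 74 depended on single libraries. It was 22, 10 and 15 without wild-type IgG2b replicate 1, 2 or 3, and 45, 49 and 44 without Nr2f6-/- aPDL1 replicate 2, 3 or 5. The 74 genes kept their direction in every alternative that tested them, which was all but a filter at a mean of 50 (13 not tested) and DESeq2 (3 not tested). Ccl5, Lyz2, Ccl6, Sepp1, Tpm4 and Ppbp alone passed the threshold in each of the 9 fits that left out 1 of the compared samples. Of these, Ppbp did not pass in edgeR (adjusted p = 0.0548) or DESeq2 (adjusted p = 0.345). It was kept for the test through the 3 controls alone, with 0 reads in the other 15 samples. Among the 55, Pdpn also had 0 reads in those 15 samples, and Hes1 and 1700049G17Rik were at or under 3 reads in each of them. These genes were likewise kept through the controls alone. With a filter at a mean of 50, limma called 36 genes lower. On recovered reads, edgeR called 41 genes, 9 higher and 32 lower, and DESeq2 177, 92 higher and 85 lower. Within the first library set, 3 samples against 3, 50 genes passed the threshold (13 rose, 37 fell), 29 of which belong to the 74.

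Each change alone gave fewer calls against the same 3 wild-type IgG2b samples. Loss alone compared 3 samples with 3, whereas the combination and blockade alone compared 6 with 3. Its standard errors were therefore larger (for Ccl5 0.315 against 0.273), and the counts of calls do not compare effect sizes. Loss of Nr2f6 alone had 0 genes past the threshold in limma (0%), with 641 at an unadjusted p under 0.05, 0 in edgeR and 88 in DESeq2. PD-L1 blockade alone had 29 (0.242%) in limma, all lower, whereas DESeq2 called 36 higher and 58 lower. Because the control samples are shared, the errors of the combined difference correlate by design with those of loss alone (0.577) and of blockade alone (0.667), and the likeness of these differences is not evidence by itself.

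Promoters of 4 genes that rose are shown, from 250 bases before to 50 bases after 1 annotated start of each gene (RefSeq, GRCm38.p6). For Klrc1, whose annotated span on the minus strand begins at 129682852, this start lies inside the span, and its window does not show the sequence before that outer end. They belong to the cytotoxic granule gene Nkg7, the receptor genes Klrk1 and Klrc1, and the chemokine gene Ccl3, and they show which of 4 short motifs lie near these starts. Capitals mark a motif match.
Nkg7, chr7:43436888-43437187, plus strand: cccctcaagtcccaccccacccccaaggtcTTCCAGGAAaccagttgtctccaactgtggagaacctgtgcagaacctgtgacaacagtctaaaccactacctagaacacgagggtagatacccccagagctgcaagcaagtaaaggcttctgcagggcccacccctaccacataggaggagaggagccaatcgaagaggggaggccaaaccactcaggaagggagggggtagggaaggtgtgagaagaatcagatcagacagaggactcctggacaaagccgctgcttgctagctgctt
Klrk1, chr6:129623815-129624114, minus strand: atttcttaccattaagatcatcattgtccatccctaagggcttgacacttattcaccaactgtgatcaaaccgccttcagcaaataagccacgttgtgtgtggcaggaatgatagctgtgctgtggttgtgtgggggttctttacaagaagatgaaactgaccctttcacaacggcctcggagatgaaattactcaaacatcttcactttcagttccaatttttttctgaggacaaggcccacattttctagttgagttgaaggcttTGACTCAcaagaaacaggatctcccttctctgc
Klrc1, chr6:129678924-129679223, minus strand: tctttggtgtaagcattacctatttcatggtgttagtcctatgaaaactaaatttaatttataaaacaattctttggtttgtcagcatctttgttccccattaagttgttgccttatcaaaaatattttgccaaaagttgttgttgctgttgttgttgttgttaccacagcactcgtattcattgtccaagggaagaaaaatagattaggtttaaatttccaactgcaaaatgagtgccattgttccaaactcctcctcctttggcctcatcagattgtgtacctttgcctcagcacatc
Ccl3, chr11:83649329-83649628, minus strand: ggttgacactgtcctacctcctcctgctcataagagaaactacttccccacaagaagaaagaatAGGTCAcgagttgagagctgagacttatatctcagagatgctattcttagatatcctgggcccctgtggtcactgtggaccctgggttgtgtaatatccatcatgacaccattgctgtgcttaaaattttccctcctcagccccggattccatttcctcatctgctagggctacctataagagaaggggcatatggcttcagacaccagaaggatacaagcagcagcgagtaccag

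The motifs searched on both strands were AGGTCA, the nuclear receptor core site, TGANTCA, the AP-1 site, TGACGTCA, the CRE site, and TTCNNNGAA, the STAT site. Nkg7 held TTCNNNGAA at bases 31 to 39, Klrk1 held TGANTCA at bases 268 to 274, Ccl3 held AGGTCA at bases 65 to 70, counted from 1 at the 5′ end of the printed sequence, and the window inside Klrc1 held none of them. Of 32851 mouse promoters of this length, 16.3% held AGGTCA, 7.81% TGANTCA, 1.79% TGACGTCA and 8.30% TTCNNNGAA. Of the 19 genes that rose, 14 had a promoter in the table, and 4, 1, 0 and 2 of these held the motifs in the same order. Of the 55 that fell, 38 had one, and 7, 5, 0 and 3 held them. The counts describe letters in these windows.

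Chemokines that recruit T cells and other leukocytes were among the genes that rose. Ccl5 (chr11:83525778-83530518) had 36841, 50158 and 34623 normalized counts in the wild-type IgG2b samples and 108648 to 157300 in the combination samples, with a median of 126870. All 6 combination samples lay above all 3 controls, and Ccl5 rose 3.22-fold (log2 1.69, SE 0.27, adjusted p = 0.00186). Ccl4 had 4059, 2516 and 5716 against 7469 to 19414, median 11273, without overlap, and rose by 1.52 on the log2 scale (SE 0.32, adjusted p = 0.0184). Ccl3 had 6558, 4717 and 2694 against 5608 to 12957, median 11087. Replicate 6 was the combination sample at 5608 and overlapped the controls, and Ccl3 rose by 1.21 (SE 0.28, adjusted p = 0.0343). The annotated spans of Ccl3 and Ccl4 overlap, and without a stated strand setting reads between them cannot be told apart. The other 2 genes of the 5-gene list, Ccl1 and Xcl1, had log2 differences of -2.79 and -0.55 and did not pass (adjusted p = 0.36 and 0.70).

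**Figure D1:**
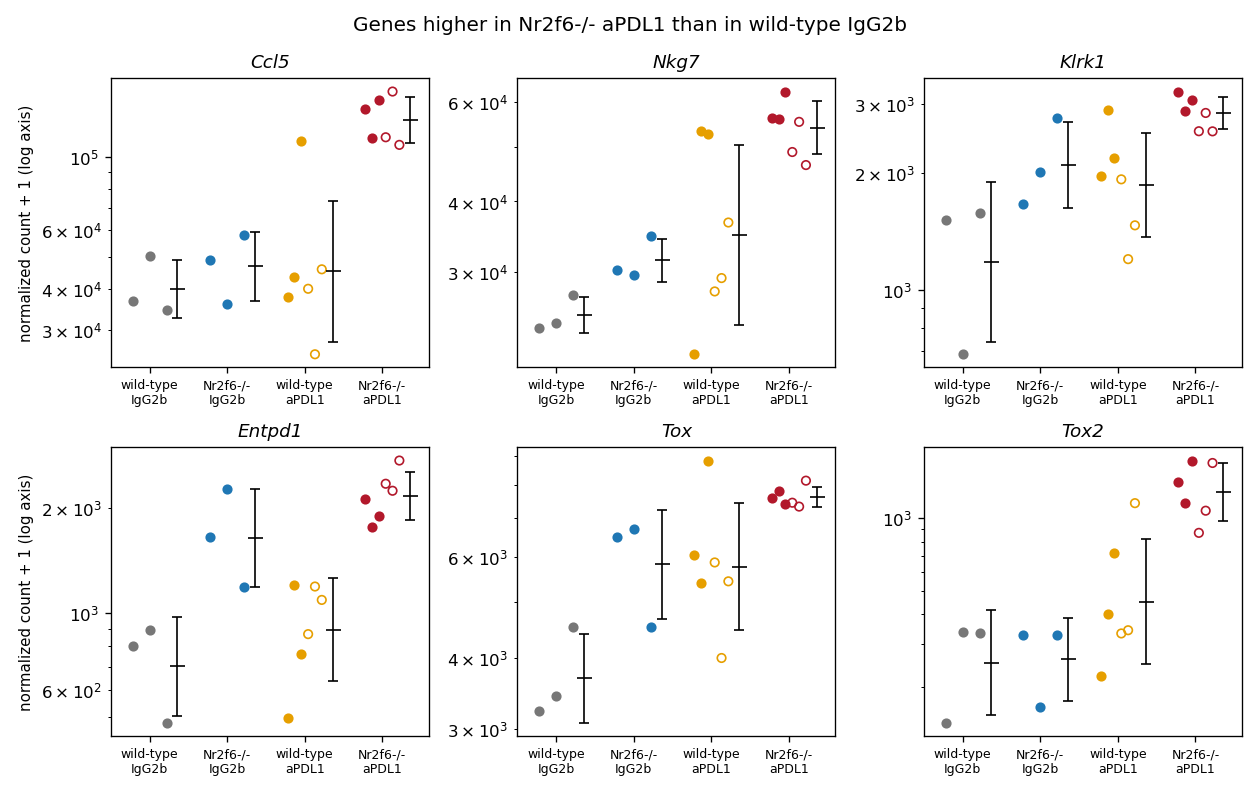
Normalized count + 1 (log axis) of 6 genes that rose, by group; points are samples (filled, first library set; open, second), and bars are the mean ± SD of log2 values. Ccl5 sits between 108648 and 157300 in the Nr2f6-/- aPDL1 samples and between 34623 and 50158 in wild-type IgG2b.

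Genes of the killing machinery and its receptors were the next group. Nkg7, a granule protein of cytotoxic T and NK cells (chr7:43437138-43438246), had 23884, 24306 and 27329 normalized counts in the controls and 46406 to 62649 in the combination samples, median 55682. No sample overlapped, and Nkg7 rose 2.15-fold (log2 1.10, SE 0.21, adjusted p = 0.0092). Of 17 cytotoxic effectors tested, 14 were fitted higher, and it was the 1 gene called in limma, as edgeR called 1 and DESeq2 2. The granzymes Gzma and Gzmb had log2 differences of 1.62 and 0.81 and the pore protein Prf1 one of 1.25, and none passed (adjusted p = 0.078, 0.14 and 0.31), although the samples did not overlap for Gzmb. Ifng, the main Th1 and CD8 effector cytokine, had 2076 to 3061 normalized counts in the controls and 3498 to 8672 in the combination samples without overlap, and its log2 difference of 0.91 did not pass (SE 0.25, adjusted p = 0.093). Effector cytokines as a list had no common direction. Of 11 tested, 5 were fitted higher and 6 lower, with a median of -0.35.

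Of 15 killer lectin-like receptors tested, 11 were fitted higher and limma and DESeq2 each called 3, whereas edgeR called 0. Klrk1, which encodes the activating receptor NKG2D, had 1514, 685 and 1581 normalized counts in the controls and 2553 to 3230 in the combination samples, median 2863. It rose 2.41-fold without overlap (log2 1.27, SE 0.27, adjusted p = 0.0191). Klrc1, which encodes the inhibitory receptor NKG2A, had 8015, 4923 and 10005 against 12995 to 21295, median 15876, and rose without overlap (log2 1.14, SE 0.25, adjusted p = 0.028). Klri2 had 39.5, 2.08 and 56.4 against 217 to 939 and rose without overlap (log2 4.27, SE 0.97, adjusted p = 0.0337). The receptor genes lie in a cluster of related genes on chromosome 6, and reads that match more than 1 of them would make single values uncertain. The share of such reads was not tested. Klrg1, a receptor of short-lived effector cells, was lower in all combination samples (108 to 740 against 798 to 1913) and did not pass (log2 -1.83, adjusted p = 0.17).

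Genes known from chronic stimulation made the third group. Entpd1, which encodes the ectonucleotidase CD39 that degrades extracellular ATP, had 803, 888 and 480 normalized counts in the controls and 1765 to 2735 in the combination samples, median 2181. Entpd1 rose 3.09-fold without overlap (log2 1.63, SE 0.29, adjusted p = 0.00698). Tox, a DNA-binding regulator of exhausted T cells, had 3220, 3421 and 4516 against 7339 to 8146, median 7533, and rose 2.07-fold (log2 1.05, SE 0.20, adjusted p = 0.0092). Its relative Tox2 had 141, 336 and 335 against 868 to 1730, median 1283, and rose 5.09-fold (log2 2.35, SE 0.45, adjusted p = 0.0092). Both gene products belong to the HMG-box family, and neither gene had overlapping samples. Of 11 inhibitory receptors and ectonucleotidases, 8 were fitted higher, and Entpd1 was the 1 gene called in limma, whereas DESeq2 called 2. Pdcd1 (PD-1), Havcr2 (TIM-3) and Cd160 had log2 differences of 0.55, 0.67 and 1.03, did not overlap and did not pass (adjusted p = 0.26, 0.24 and 0.16). In the list of exhaustion and immediate-early factors, 12 of 20 were fitted lower, among them Fos (log2 -1.96, adjusted p = 0.082) and Nr4a1 (log2 -1.21, adjusted p = 0.084), and Tox and Tox2 were the 2 genes called in limma, whereas DESeq2 called 3 higher and 1 lower. The median of this list was -0.17 and turned to 0.02 within the first library set. The list took 0.484 to 0.574% of normalized counts in combination replicates 1 to 3 and 0.282 to 0.367% in replicates 4 to 6, against 0.359 to 0.505% in the controls.

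The other genes that rose were in no fixed list, apart from those named above. S100a6 and S100a4, calcium-binding proteins of activated and memory cells, rose by 0.87 and 1.02, the surface antigen Ly6a (Sca-1) by 0.99, Gimap4, a GTPase of lymphocytes, by 0.74, and Vmp1, which acts in autophagy, by 0.96 on the log2 scale. AW112010, Arih2, a ubiquitin ligase, and Hip1 rose by 0.91, 1.51 and 1.48. Serpina3f, a protease inhibitor of a family with several near-identical copies, rose by 2.41 (adjusted p = 0.0329), but its 2 lowest combination samples, at 300.4 and 321, lay below the highest control at 330.3.

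T cell identity genes were looked at as a list. Of 19 T cell identity genes, 17 were fitted higher, 8 without overlap and 0 called, with a median of 0.47, and together they took 0.977 to 1.09% of normalized counts in the controls and 1.22 to 1.52% in the combination samples. At an unadjusted p under 0.05 in limma 11 of the 19 were higher and 0 lower, edgeR called 0 and DESeq2 called 2. Over all 11992 genes tested, 1084 had such a p in limma, 374 of them higher, and 260 (2.17%) were higher without overlap. Cd8a had 8102 to 8327 against 11329 to 17120 (log2 0.67, adjusted p = 0.20), whereas Cd4 had 3544 to 5708 against 2026 to 5857. The log2 ratio of Cd8a to Cd4 was 0.54 to 1.19 in the controls and 0.95 to 3.08 in the combination samples, so that these ranges overlapped. In bulk samples fewer cells of a type and less RNA per cell cannot be told apart. When each library was instead scaled to the geometric mean of its 19 T cell identity genes, an alternative added after seeing the data, all 19 genes kept their direction and Ccl5, Entpd1, Tox2 and Klri2 kept the call, the median over all genes moved from -0.12 to -0.52, and 194 genes were called, 4 higher and 190 lower. The part of the T cell share and of the CD8 share in the genes that rose was not tested further.

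For these 19 genes the combined difference was set beside the sum of both single differences on the log2 scale, where a departure of 0 means that the folds multiply. Both single differences were fitted above 0 in all 19. Their medians were 0.65 for loss alone and 0.65 for blockade alone, that of the combination was 1.21 and that of the departure -0.16. The combined difference was larger than the sum in 9 genes and smaller in 10, and the 95% interval of the departure included 0 in 15. Over all genes 0 passed the threshold for the departure in limma (0%), the smallest adjusted p was 0.33, and 596 had an unadjusted p under 0.05, whereas edgeR called 0 and DESeq2 76. The interval lay above 0 in 370 genes (3.09%) and below 0 in 226 (1.88%). The 19 genes were chosen on the combined difference, which enters the departure, so their counts are a description.

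Ccl5, Tox2 and S100a6 had departures above 0. For Ccl5, loss alone had a log2 difference of 0.23 and blockade alone of 0.18 against 1.69 for both, a departure of 1.29 (95% interval 0.50 to 2.08, adjusted p = 0.959). Nr2f6-/- IgG2b samples held 48717, 36092 and 58105 normalized counts of Ccl5, and wild-type aPDL1 samples 25409 to 111441, median 41763, the highest of which was 1 sample within the range of the combination. Tox2 had 0.05 and 0.84 alone and a departure of 1.46 (0.16 to 2.76), and S100a6 had 0.17 and 0.06 alone and a departure of 0.64 (0.03 to 1.24). S100a6 was the 1 gene of the 19 for which every combination sample lay above every one of the other 12 samples. Serpina3f had 2.21 and 1.90 alone and a departure of -1.70 (-3.28 to -0.13), so that the combined difference of 2.41 was close to either one.

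The genes whose interval included 0 were of several kinds. Entpd1 had 1.23 with loss alone and 0.35 with blockade alone, which sum to 1.58 against 1.63 for both, a departure of 0.05 (-0.80 to 0.89). Nkg7 had 0.32 and 0.47 and a departure of 0.31 (-0.31 to 0.93), Ccl4 0.54 and 0.90 and a departure of 0.08 (-0.85 to 1.01), and Klrk1 0.83 and 0.66 and a departure of -0.22 (-1.0 to 0.56). Ccl3 had 1.20 with loss alone and 1.21 with both, and its departure was -0.65 (-1.46 to 0.16). The median width of the interval over the 19 genes was 1.56 on the log2 scale, which limits the departures that could be told apart from 0. Every combination sample lay above every Nr2f6-/- IgG2b sample in 9 of the 19 genes and above every wild-type aPDL1 sample in 2, Entpd1 and S100a6.

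On the scale of normalized counts, where gains add and do not multiply, 12 of the 19 genes gained more than the sum of both single gains and 7 gained less. The Ccl5 mean gained 89781 normalized counts against a sum of 17212, 5.22 times as much, S100a6 5.27 times, Tox2 4.06 times and Nkg7 1.62 times. Ccl3 gained 0.696 times the sum. Arih2, Klrk1 and Klri2 lay above the sum on this scale and below it on the log2 scale, and Ccl5, Tox2 and S100a6 exceeded the sum on both.

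**Figure D2:**
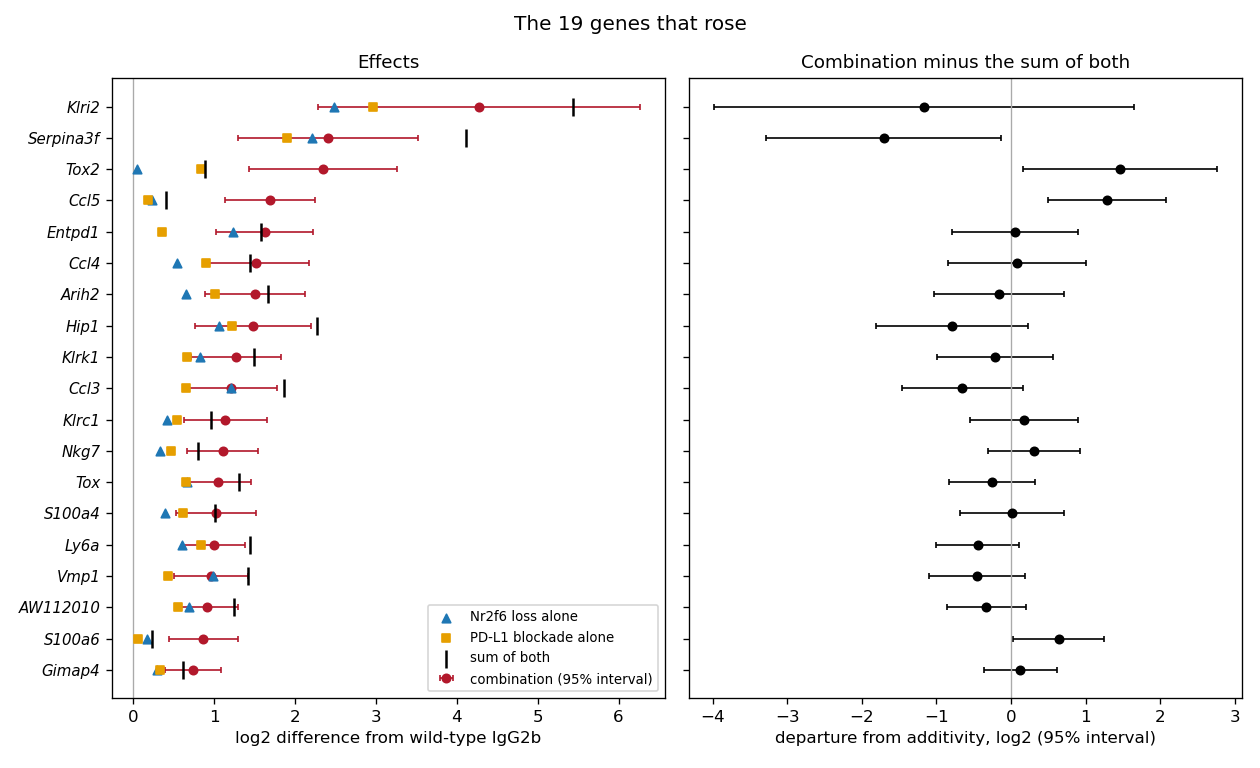
Left, log2 differences from wild-type IgG2b of the 19 genes that rose, for the combination (circles, 95% interval), Nr2f6 loss alone (triangles), PD-L1 blockade alone (squares) and the sum of both (bars). Right, departure of the combination from the sum with its 95% interval, which lies above 0 for Ccl5, Tox2 and S100a6 and below 0 for Serpina3f.

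Macrophage and monocyte markers held the most called genes among the lists that fell. Lyz2, lysozyme of macrophages and neutrophils, had 7325, 7220 and 6244 normalized counts in the controls and 296 to 807 in the combination samples, median 686. All combination samples lay below all controls, and Lyz2 fell 12.2-fold (log2 -3.61, SE 0.39, adjusted p = 3.75e-06). The chemokine Ccl6 had 6891, 4995 and 4926 against 51.9 to 541, median 430.5, and fell 18.4-fold (log2 -4.20, SE 0.51, adjusted p = 2.43e-05). The complement gene C1qb had 921, 1511 and 992 against 21.1 to 260.0, median 117, and fell 11.1-fold (log2 -3.47, SE 0.63, adjusted p = 0.00698).

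Of 24 macrophage and monocyte markers tested, 24 were fitted lower and 20 did not overlap. Over all genes tested, 480 (4.0%) were lower without overlap. Calls were 9 in limma, 6 in edgeR and 7 in DESeq2, and the median was -3.93 against -0.12 over all genes. Among those called in limma were Adgre1, which encodes F4/80, C3ar1, the complement C3a receptor, Mrc1, the mannose receptor, and Apoe (log2 -7.07, -8.24, -6.40 and -5.62). Adgre1 and Mrc1 did not pass in edgeR (adjusted p = 0.201 and 0.104) or DESeq2 (adjusted p = 0.201 and 0.0886). Their log2 differences in edgeR were smaller in size, -4.79 and -4.66. Arg1, arginase of suppressive macrophages, had 1032, 125 and 443 normalized counts in the controls and 0 reads in all 6 combination samples, at least 146-fold lower at 3 reads per library and at least 77.9-fold without wild-type IgG2b replicate 1. Together these markers took 0.141 to 0.166% of normalized counts in the controls and 0.00835 to 0.0228% in the combination samples. Of 10 myeloid chemokines tested, 10 were fitted lower, and limma called 5 (edgeR 4, DESeq2 3), namely Ccl2, Ccl6, Ccl12, Ccl24 and Cxcl1. Ccl2, which recruits monocytes, had 1283, 1058 and 2244 against 0 to 148, median 99.6 (log2 -5.29, SE 1.03, adjusted p = 0.0092).

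Of the MHC class II genes, which present antigen to CD4+ T cells, H2-Eb1 and H2-Ab1 fell. H2-Eb1 had 1744, 3395 and 2818 normalized counts in the controls and 354 to 1262 in the combination samples, median 705, and fell 3.70-fold without overlap (log2 -1.89, SE 0.36, adjusted p = 0.0092). H2-Ab1 fell by 1.93 on the log2 scale (adjusted p = 0.0144). Of 15 MHC class II and dendritic cell markers tested, 14 were fitted lower, and these were the 2 called in limma, whereas DESeq2 called 3. The list took 0.0705 to 0.12% against 0.0189 to 0.0436% of normalized counts. Of 4 platelet genes tested limma called 2, both lower, edgeR 1 and DESeq2 0. Pf4 had 2158, 2142 and 2269 against 0 to 157, median 9.55, and fell by 8.08 on the log2 scale (SE 1.59, adjusted p = 0.01). Ppbp had 452, 158 and 77.9 in the controls and 0 reads in the other 15 samples, at least 63.0-fold lower at 3 reads per library and at least 32.4-fold without wild-type IgG2b replicate 1. Defining platelet genes such as Gp9, Treml1 and Tubb1 had 0 reads in the controls and in the combination samples.

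These genes mark cells that a CD3 sort should remove. B cell, neutrophil, melanocyte and stromal cell lists had 0 called genes in limma, edgeR and DESeq2, with 1, 1, 4 and 1 genes lower at an unadjusted p under 0.05 in limma. Of their 12, 15, 12 and 15 genes, only 5, 5, 11 and 13 were tested. Of these 3, 3, 9 and 8 were fitted lower, with medians of -0.56, -0.36, -1.18 and -0.26, so a lack of calls does not show equal levels. Of 6 NK cell markers tested, Nkg7 rose and Fcer1g fell. The part of myeloid cells or their RNA in the other genes that fell was not tested.

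**Figure D3:**
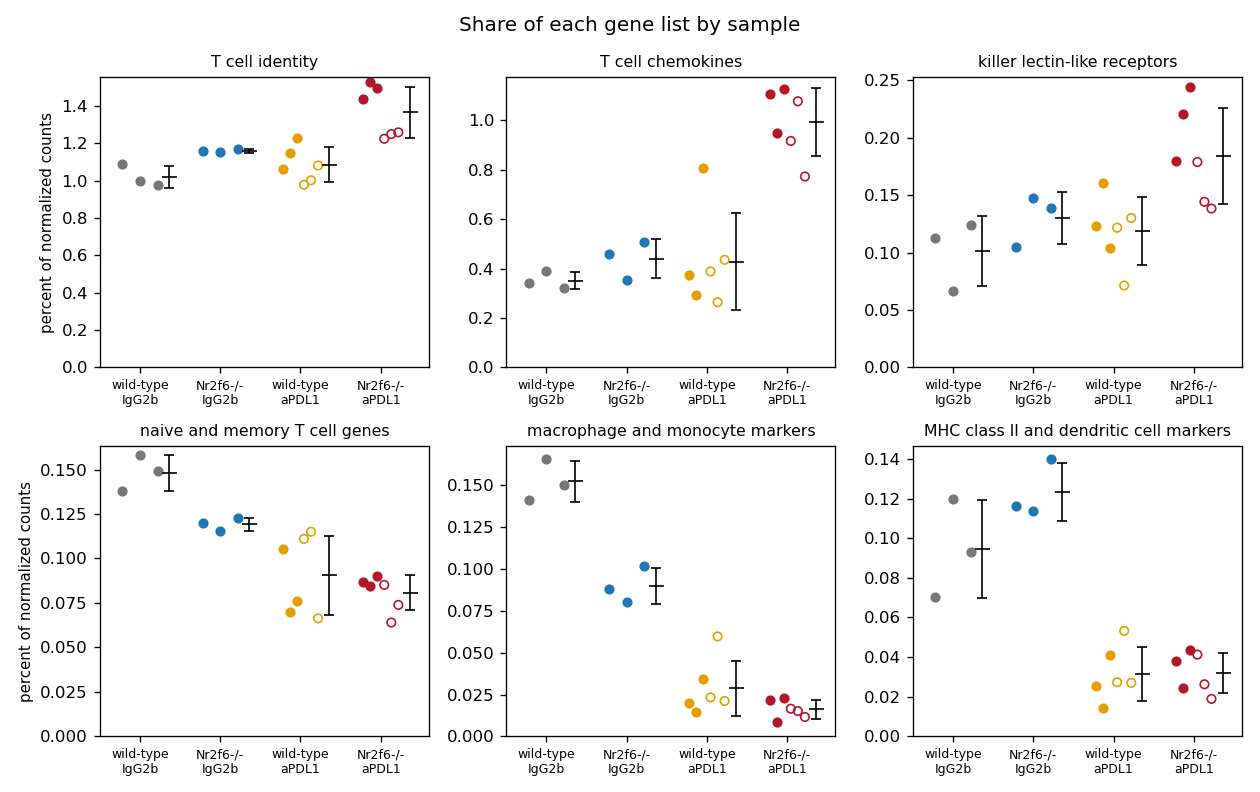
Percent of normalized counts taken by 6 gene lists in each sample, by group (linear axis from 0; filled, first library set; open, second; bars, mean ± SD). The macrophage and monocyte markers take 0.141 to 0.166% in wild-type IgG2b and 0.00835 to 0.0228% in Nr2f6-/- aPDL1, and the T cell identity genes 0.977 to 1.09% and 1.22 to 1.52%.

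Of 16 genes of naive and memory T cells, limma, edgeR and DESeq2 each called 2, both lower. Tcf7, which encodes TCF-1, a factor of naive, memory and stem-like T cells, had 3734, 5137 and 4134 normalized counts in the controls and 1214 to 1694 in the combination samples, median 1589. No sample overlapped, and Tcf7 fell 2.80-fold (log2 -1.49, SE 0.26, adjusted p = 0.00618). Igfbp4 had 479, 1270 and 1023 against 19 to 145, median 75.1, and fell by 3.79 on the log2 scale (SE 0.68, adjusted p = 0.00698). All 16 genes of the list were fitted lower with a median of -0.81, and 4 did not overlap, against 480 (4.0%) lower over all genes tested. Among those that did not pass in limma were Il7r, S1pr1 and Ccr7 (log2 -1.37, -1.32 and -1.32, adjusted p = 0.12, 0.11 and 0.29). The list took 0.138 to 0.158% of normalized counts in the controls and 0.064 to 0.0903% in the combination samples.

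Some genes that fell were in no list. Tpm4, a tropomyosin of the cytoskeleton, lies 0.753 Mb from Nr2f6 on chromosome 8. It had 7987, 6506 and 6878 normalized counts in the controls and 1895 to 4356 in the combination samples, median 2449, and fell 2.69-fold without overlap (log2 -1.43, SE 0.21, adjusted p = 0.000766). Nr2f6-/- IgG2b samples also had low values, 2949, 4015 and 4038, whereas wild-type aPDL1 samples held 8063 to 10074, so that the values were low in both knockout groups. Ifi30 and Lpl, 0.607 and 2.47 Mb from Nr2f6, were also among the 55. Ifi30 had log2 differences of -0.21 with loss alone and -0.41 with blockade alone, and Lpl had -3.47 and -2.55. The part of sequence around the knockout locus was not tested. Utf1 had 322, 319 and 323 in the controls and 0 to 25.1 in the combination samples, median 2.50 (log2 -6.34, SE 1.18, adjusted p = 0.00808). Sepp1, a selenium carrier, fell by 2.40 and Tpd52 by 2.34.

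**Figure D4:**
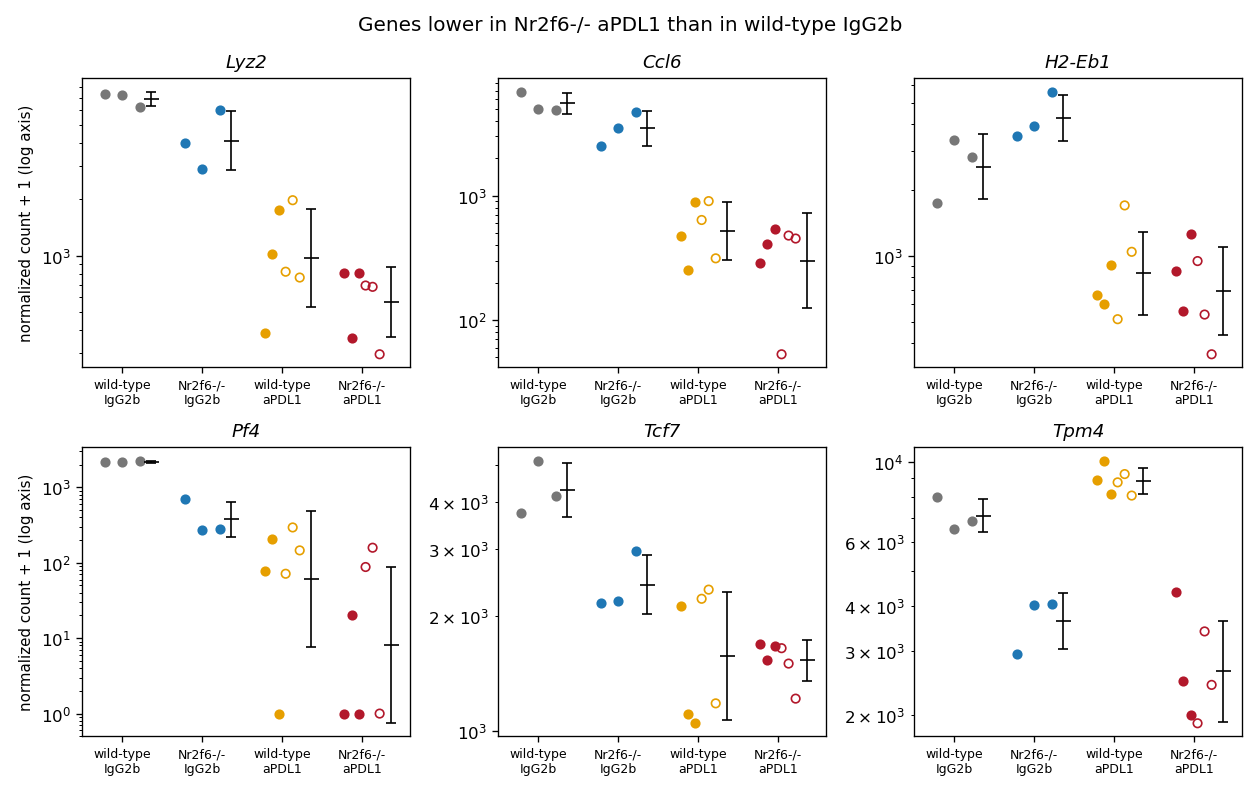
Normalized count + 1 (log axis) of 6 genes that fell, by group; points are samples (filled, first library set; open, second), and bars are the mean ± SD of log2 values. Tpm4 is low in both Nr2f6-/- groups, and Lyz2 and Ccl6 are low in both aPDL1 groups.

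For the genes that fell, blockade alone was the larger single difference in 45 of 55, and 14 of them also passed the threshold with blockade alone. Medians were -5.54 for the combination, -0.71 for loss alone and -3.12 for blockade alone. Lyz2 had -0.74 with loss alone and -2.83 with blockade alone (adjusted p = 0.000387), which left a departure of -0.04 (95% interval -1.16 to 1.08). Ccl6 had -0.67 and -3.42 and a departure of -0.12 (-1.59 to 1.36). Tcf7 had -0.83 and -1.45 (adjusted p = 0.00912 for blockade alone) against -1.49 for both, a departure of 0.79 (0.04 to 1.54), so that its combined difference was close to that of blockade alone.

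Both single differences were below 0 in 48 of the 55 genes, loss alone was above 0 in 5 and blockade alone in 2. H2-Eb1 had 0.74 with loss alone and -1.62 with blockade alone, with 3536, 3921 and 5625 normalized counts in the Nr2f6-/- IgG2b samples, and its departure was -1.01 (-2.05 to 0.04). The interval of the departure lay below 0 for Tpm4 (-0.78, -1.40 to -0.16), Tpd52 (-1.40, -2.69 to -0.12) and Utf1 (-5.34, -8.74 to -1.94). Utf1 had 315, 429 and 162 normalized counts in the Nr2f6-/- IgG2b samples and 63.5 to 293 in the wild-type aPDL1 samples, and every combination sample lay below every one of them. This was so for 2 of the 55 genes, Utf1 and Igfbp4.

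The interval lay above 0 in 10 genes. In 6 of these, among them Ppbp, Pdpn and Ccl24, a single-effect group was at or under 3 reads in all its samples, where no further fall can be measured. For Arg1 and Igf1 the combination itself had 0 reads in 6 and in 5 of its 6 samples, so that the sum could not be reached either. The other 2 were Tcf7 and App. Over all 55 genes the interval included 0 in 42, with a median width of 6.86 on the log2 scale, so that for genes with low counts neither a larger nor a smaller fall than the sum could be told apart from it.

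**Figure D5:**
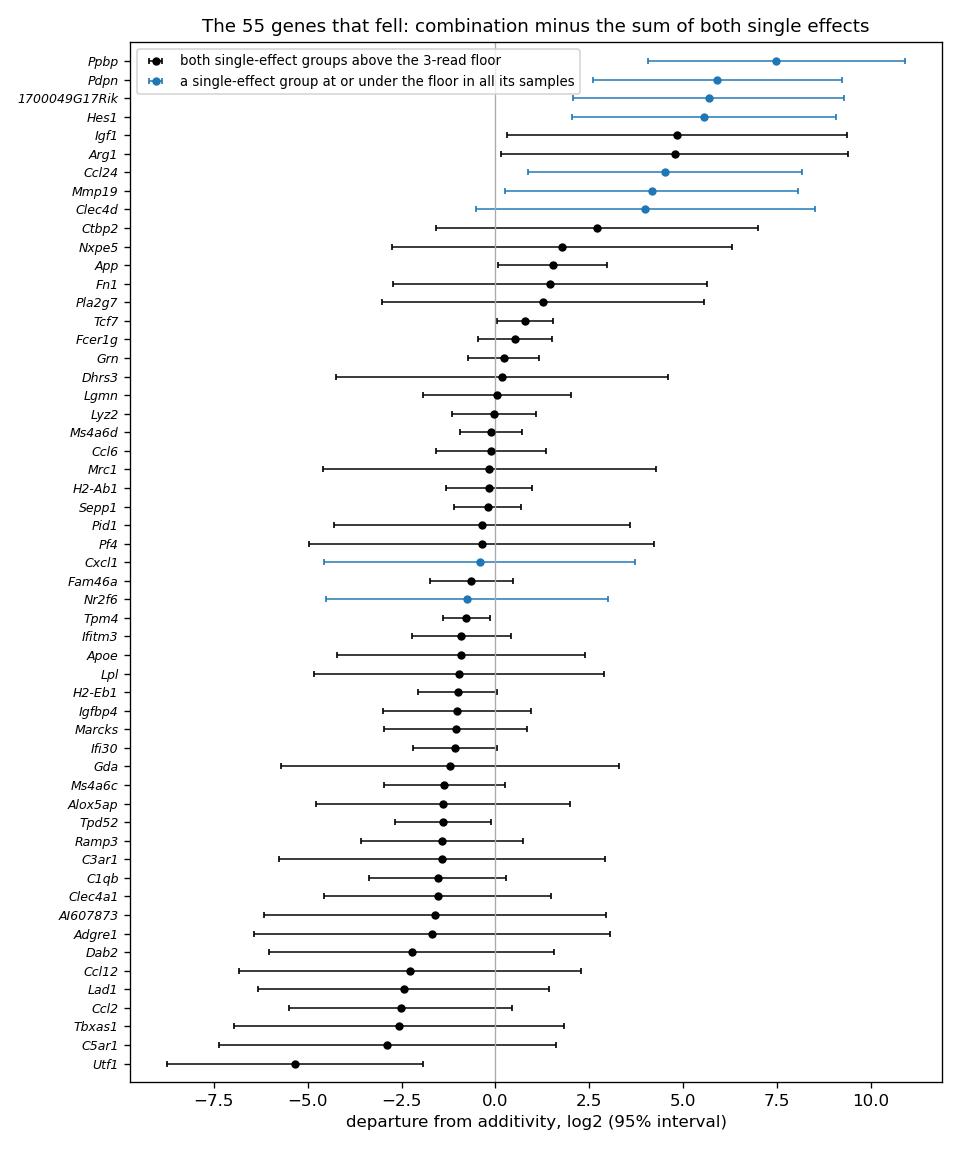
Departure of the combination from the sum of both single differences (log2, 95% interval) for the 55 genes that fell, with genes in blue where a single-effect group is at or under the floor of 3 reads in all its samples. Intervals lie below 0 for Tpm4, Tpd52 and Utf1 and include 0 for 42 genes.

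The genes farthest from additivity over the whole table were not among the 74, apart from Ppbp. Of these 12 genes, 0 passed the adjusted threshold in limma or edgeR and 10 passed it in DESeq2. Msmo1, an enzyme of cholesterol synthesis, had 662 to 1115 normalized counts in wild-type IgG2b, 1240 to 1873 with loss alone, 951 to 1884 with blockade alone and 347 to 991 with both (departure -2.04, -2.94 to -1.13, adjusted p = 0.33). Tff1, a secreted trefoil peptide, had 163 to 221, 190 to 511, 197 to 1130 and 0 to 60.8 in the same order (departure -6.23, -9.12 to -3.33, adjusted p = 0.33). Morf4l2, Clcc1, Slc16a13 and Cwc15 also had departures below 0 (-2.27, -2.13, -7.91 and -1.06). Panx1, a channel that releases ATP, had 1115 to 1673, 779 to 933, 768 to 1487 and 1522 to 2700 (departure 1.55, 0.81 to 2.29, adjusted p = 0.33). Rprd2, 4933404O12Rik, Rufy3 and Gm24265 had departures of 2.13, 5.87, 8.71 and 2.65. For Msmo1 each single change had higher means and the combination a lower mean than the control, and for Panx1 the reverse held.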

How the data were processed

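RNA of sorted CD3+ tumor-infiltrating T cells was measured in 18 samples with a 3′ kit on an Ion Torrent instrument. The authors trimmed reads with Cutadapt and Trimmomatic, removed those shorter than 22 nt, mapped them to mm10 with STAR and Bowtie2 and counted them per gene with HTSeq. The annotation, strand setting and tool versions are not given in the sources used here. What the authors deposited is a signal, the count of a gene divided by 1 size factor per sample. Dividing by the step of each column gave whole reads for 100% of values (tolerance 0.01), with 12473391 to 18609482 reads on genes per sample. The values carry no molecular identifiers, so floors cover counting error only. No 2 columns were identical (0 of 153 pairs).

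Since size factors had been applied to the deposited signal, differences were tested with limma (version 3.58.1, R 4.3.3, eBayes with trend) on log2(normalized count + 1), in 1 model of 4 group means over 18 samples. Fold changes are on this scale and can lie under or above other measures for genes with few reads. Pf4 fell 271-fold on it, against a ratio of group means of 49.9 and a log2 difference of -5.62 in edgeR. Ppbp fell by 7.48 on the log2 scale, against 10.9 in edgeR. Genes with a mean of at least 10 over all samples were kept, 11992 of 37236. Tests were two-sided with Benjamini-Hochberg adjustment over all genes tested, a threshold of 0.05 and 95% intervals that are not adjusted. The departure from additivity was the contrast of the combined difference minus both single differences. edgeR (4.0.16) and DESeq2 (1.42.0) on recovered reads were alternatives, with other pseudocounts, filters, scalings, covariates, weights and left-out samples. The main limma fit, edgeR and DESeq2 were tested on simulated data for the combined difference and the departure. The other settings were not simulated. Gene positions and promoters are from RefSeq (GRCm38.p6), matched by symbol.

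The genes named were Nr2f6, all that rose, those that fell with the smallest p or in a list, per list up to 6 other members by level or smallest p, and the 6 genes each way farthest from additivity by p. The comparison, the 25 gene lists and this rule were chosen with earlier results of these data known. Some list members are not reported here on their own.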

Additional observations from a re-analysis of the deposited data

Results flagged for a closer look

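For 137 named genes and list shares the 6 Nr2f6-/- aPDL1 samples were searched for 1 sample far from the other 5, with a gap above the 95% critical value of Dixon's test, and 15, all of them genes, had one. Chance gives about 1 in 20 groups, but this rate does not hold where 5 samples had no reads. There any read in the remaining sample passes the limit, and most genes held by replicate 1 were of this kind. Replicate 1 held 6 of the 15, replicate 6 held 5, replicate 4 held 3 and replicate 2 held 1.

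Replicate 6 had low normalized counts of Ccl3 (5608, others 10525 to 12957), Tcf7 (1214, others 1501 to 1694), Tyrobp (2.0, others 70.5 to 288) and Hspa5 (7715, others 13072 to 15669), and a high one of Il7r (1270.1, others 487 to 675). Replicate 4 had low normalized counts of AW112010 (24934, others 31145 to 35584) and Ccl6 (51.9, others 287 to 541). Replicate 1 had a low normalized count of Itgb3 (5.58, others 215 to 442).

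In the other genes 1 sample had reads where the other 5 had 0. In replicate 1 these were Clec4d at 10.2, Ccl12 at 4.65, and AI607873, Pla2g7 and Ccl24 at 0.930 normalized counts. Mmp19 was at 0.868 in replicate 2, and Igf1 was at 11 in replicate 4.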

How the results depend on the processing

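The 74 genes kept their direction in every alternative that tested them (13 were not tested with a mean of at least 50 and 3 in DESeq2), and no named gene reversed where tested. The combined comparison called 74 genes, and 116 with a pseudocount of 10, 300 with sample weights, 41 in edgeR, 177 in DESeq2, 194 with T cell scaling (chosen after seeing the data) and 10 to 92 with 1 sample left out. Under the other settings it called 50 to 88 genes, not always the same ones. Without a filter 28 of its 53 calls were among the 74. With only the groups compared 44 of 82 were, and with the library set as a covariate 56 of 88. The overlap was larger with quantile normalization (62 of 68) and a pseudocount of 0.5 (64 of 64). Blockade alone called 29, and 60 with a pseudocount of 10, 19 with a mean of at least 50, 12 with the library set as a covariate, 12 with the replicate block, 87 with sample weights, 19 in edgeR, 94 in DESeq2, 15 with only the groups compared, 47 with T cell scaling and 6 to 31 with 1 sample left out, the lowest counts being 10, 8 and 6 without wild-type IgG2b replicate 1, 2 or 3. Loss alone called 0, and 1 with a pseudocount of 10, 14 without a filter, 4 with sample weights, 88 in DESeq2 and 0 to 1 with 1 sample left out (1 without wild-type aPDL1 replicate 5). The departure called 0, 5 without a filter, 76 in DESeq2 and 0 to 0 with 1 sample left out. The wild-type mean of Nr2f6 was 27.9 to 68.4 with 1 sample left out. The cause of these differences was not tested.

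Replicate numbers did not pair the samples (correlations of -0.029 to 0.037 over 21 pairs, 0 above 0.1, and 5 samples correlated best with their own number). With the replicate block the combined comparison called 79 genes, 48 of them among the 74.

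The 3 wild-type IgG2b samples enter every difference and limit the precision of all of them. Levels near 3 reads limit the measured fall of genes with few reads. The second library set holds no IgG2b sample, so the sets and treatments are separable only among replicates 1 to 3.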

Other observations

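Glycolysis and hypoxia genes showed no common difference between the combination and the wild-type controls. Of 23 genes, 12 were fitted higher and 11 lower, 0 were called, and the median log2 difference was 0.00, against 0.37 for blockade alone and 0.20 for loss alone. In limma 3 of them, 2 higher and 1 lower, had an unadjusted p under 0.05, and edgeR and DESeq2 called 0. Over all 11992 genes tested, 1084 had such a p for the combination in limma, 374 of them higher. The interval of the departure from additivity lay below 0 in 5 of the 23 and above 0 in 0. Over all genes tested it lay below 0 in 226 (1.88%) and above 0 in 370 (3.09%). The median departure of the list was -0.63, and Pkm, pyruvate kinase, had the same value. The 23 genes took 0.505 to 0.652% of normalized counts in the controls and 0.487 to 0.596% in the combination samples.

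Heat shock and stress genes were fitted lower in 17 of 18, with a median log2 difference of -0.50 against -0.12 over all genes, 7 lower at an unadjusted p under 0.05 in limma, and 0 called in limma, edgeR and DESeq2. Among them were the chaperones Hsp90aa1 and Hspa5 (log2 -0.59 and -0.50, adjusted p = 0.29 and 0.33). Of 36 cell cycle genes, 30 were fitted higher with a median of 0.25, which turned to -0.16 with T cell scaling, and limma and edgeR called 0 and DESeq2 1, with 5 higher at an unadjusted p under 0.05 in limma. Cd27, a costimulatory receptor, and Id2, a regulator of effector T cells, did not overlap between the groups (1793 to 3373 against 3505 to 6318 and 8545 to 9445 against 12041 to 25127 normalized counts) and did not pass (log2 1.06 and 0.87, adjusted p = 0.054 and 0.072). Of 48 interferon-induced genes tested, 25 were fitted higher and 23 lower with a median of 0.12, which turned to -0.29 with T cell scaling. Of these limma and edgeR called 0 and DESeq2 3, and 10 were higher and 4 lower at an unadjusted p under 0.05 in limma. Regulatory T cell genes, chemokine receptors, signal attenuators and effector cytokines had 0 called in limma and edgeR of 15, 17, 23 and 11 tested. Of these 9, 13, 16 and 6 were fitted lower, with a median of -1.01 for the chemokine receptors. DESeq2 called 0, 1, 0 and 1, all higher. At an unadjusted p under 0.05 in limma, 1, 1, 0 and 1 were higher and 0, 6, 2 and 2 lower. Together the chemokine receptors took 0.214 to 0.230% of normalized counts in the controls and 0.236 to 0.343% in the combination samples. Their median log2 difference was -0.50 within the first library set. Of 11 costimulatory receptors limma and edgeR called 0 and DESeq2 1, with 2 higher and 1 lower at an unadjusted p under 0.05 in limma.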
